A study of Mus musculus with 4 samples.

Results

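The genes described here are 33 markers and effectors of macrophages and other leukocytes, read from 4 oligonucleotide arrays of embryonic mouse dermis. They were taken from a list of gene names, and each gene was represented by the probe set, the group of short probes that reports a transcript, with its highest mean signal over the 4 arrays. All 33 had a probe set that names the gene alone, among 18193 genes named on the array. The RNA came from dorsal skin of embryos at E15.5, counted in days of gestation, from which dispase had freed the dermis of its epidermis. The 2 mutant samples came from embryos with KRT14-Cre and a Ctnnb1(Ex3)fl/+ allele, and the 2 control samples from littermates whose own genotype is not given in more detail. The keratin 14 promoter drives Cre in surface epithelium and not in dermis, so the allele is recombined in the epithelium that the dissection was meant to remove, and the dermis of the mutants lies under an epithelium in which beta-catenin, the effector of Wnt signalling, is stabilised. The comparison therefore asks how the dermis, with the leukocytes it holds, differed between these samples. Arrays are called mutant 1, mutant 2, control 1 and control 2 after their labels.

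The signals were scaled per array, with medians from 28.7 to 32.4. All 4 arrays were hybridised and scanned on the same day, each in a fluidics module of its own. The instrument records give the scan order as control 2, mutant 1, control 1 and mutant 2. Several points in the deposited table, the instrument records and the signals bear on how far the labels can be relied on. Of the 153 probe sets in the authors' deposited table of changed genes, 152 had control 1 and mutant 2 together on one side of control 2 and mutant 1, and 0 had both mutant arrays on one side of both control arrays. The female-specific transcript Xist had signals of 11.4 and 3108 in the mutants (1 and 2), against 3836 and 3512 in the controls (1 and 2), and the Y-linked Eif2s3y was clearly present (524) in mutant 1 alone, so sex is uneven between the arrays. The instrument records name the sample type as epidermis on 4 of the 4 arrays, where the labels say dermis. Keratin 14, a gene of the basal epidermis, had signals of 247 and 140 in the mutants (1 and 2), against 112 and 79.7 in the controls (1 and 2), so epidermal RNA remained and was uneven. The authors' deposited table lists 0 of the 49 probe sets that name these 33 genes and 0.339% of all probe sets, so a count of 0 is near the background. Whether labels were exchanged between arrays was not tested, and every difference of mutant minus control holds for the labels as given. Values are therefore given by label and by the pairs control 1 with mutant 2 and control 2 with mutant 1. The pairs were recognised from these same arrays, so for them values and counts are given, and no test that uses them is read as a result. Control 2 and mutant 1 were the first 2 arrays scanned and control 1 and mutant 2 the last 2, so the pairs and the scan order cannot be told apart.

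Macrophages are the main leukocytes of embryonic dermis. The first of them descend from yolk sac progenitors, enter the skin before hair follicles form, and live there under the control of Csf1r, the receptor for the growth factors Csf1 and Il34. They clear dying cells and matrix with scavenger receptors and lysosomal proteases, and they make the recognition subunit of complement, C1q. Other leukocytes of the embryo, such as neutrophils and lymphocytes, are sparse in skin at this stage. The 3 genes of all leukocytes (Ptprc, Laptm5 and Cd53) and the 8 macrophage markers (Csf1r, Adgre1, Mrc1, Cd68, C1qa, C1qb, C1qc and Cx3cr1) all passed the filter for dim probe sets. That filter kept probe sets whose mean log2(signal + 16) reached 5.515, the median over the table, which is a signal of about 29.7.

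The outstanding feature of the 33 genes was their height on the array labelled control 1. For 29 of the 33 the highest of the 4 signals was on control 1, whereas control 1 was the highest array for 25.8% of all named genes. The exceptions were Cd163, C1qa, Aif1 and Ccl4. Among the 31 tested genes it was the highest array for 27, against 26.1% of all tested genes. Control 1 was the lowest array for 0 of the 33, against 22.9% of all named genes. Control 2 was the lowest array for 18 of the 33, against 27.4% of all named genes. The summed signal of the 33 genes was 15032 and 16559 on mutant 1 and mutant 2, against 22775 and 12358 on control 1 and control 2. The median ratio of control 1 to control 2 was 1.75 over the 33 genes and 1.02 over all named genes, so the samples that share the control label differed in these genes. The ratio was 1.5 or more for 24 of the 33, against 17.6% of all named genes, and for 22 of the 31 tested genes, against 9.87% of all tested genes. In 13 of the 33 the arrays came in the order control 1, mutant 2, mutant 1, control 2, which 7.51% of all named genes had. In bulk RNA, fewer cells of a type and less RNA per cell cannot be told apart.

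**Figure D1:**
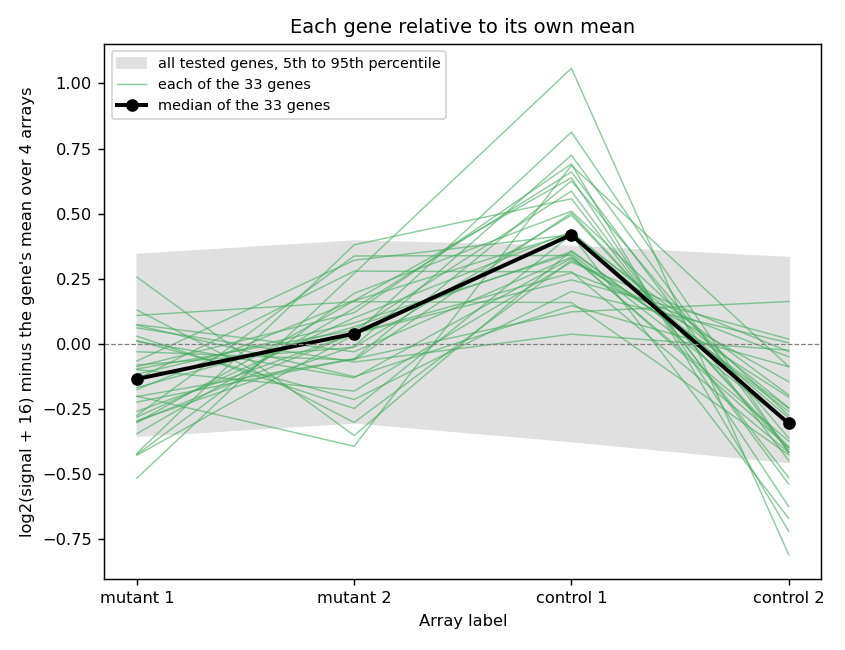
Each line follows 1 of the 33 genes over the 4 arrays, as log2(signal + 16) minus the mean of that gene over the arrays. The black line is the median of the 33, at -0.14 on mutant 1, 0.04 on mutant 2, 0.42 on control 1 and -0.31 on control 2, and the grey band spans the 5th to 95th percentile of the 11413 tested genes.

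The promoters of 4 tested genes of the list are shown, each with a single window in the sequence table. They were chosen for a wide spread of signals between the arrays. They are not simply the 4 widest, because Cd14, which spread by 2.51 times against 2.45 times for C1qb, was left out. Each run holds the 250 bases before the gene's start, on the strand of the gene, from RefSeq on GRCm38.p6. The capitals mark GAGGAA or its reverse complement TTCCTC, the core bound by PU.1, the myeloid transcription factor encoded by Spi1. The runs lie on the minus strand at chr10:117282273-117282522 (Lyz2), chr4:136892915-136893164 (C1qc), chr11:83649379-83649628 (Ccl3) and chr4:136886201-136886450 (C1qb).
Lyz2: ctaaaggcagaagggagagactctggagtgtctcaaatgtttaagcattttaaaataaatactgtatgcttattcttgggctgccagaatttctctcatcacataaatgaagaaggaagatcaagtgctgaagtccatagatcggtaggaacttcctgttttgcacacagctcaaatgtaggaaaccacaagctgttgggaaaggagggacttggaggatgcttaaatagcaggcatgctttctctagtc
C1qc: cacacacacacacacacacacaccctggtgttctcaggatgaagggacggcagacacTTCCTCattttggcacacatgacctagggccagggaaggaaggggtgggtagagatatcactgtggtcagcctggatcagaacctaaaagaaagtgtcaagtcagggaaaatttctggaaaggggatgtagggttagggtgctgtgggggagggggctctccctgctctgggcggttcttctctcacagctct
Ccl3: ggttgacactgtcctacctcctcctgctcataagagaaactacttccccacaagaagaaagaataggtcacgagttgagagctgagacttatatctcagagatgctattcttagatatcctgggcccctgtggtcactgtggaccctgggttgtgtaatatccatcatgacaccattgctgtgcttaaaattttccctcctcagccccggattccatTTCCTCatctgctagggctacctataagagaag
C1qb: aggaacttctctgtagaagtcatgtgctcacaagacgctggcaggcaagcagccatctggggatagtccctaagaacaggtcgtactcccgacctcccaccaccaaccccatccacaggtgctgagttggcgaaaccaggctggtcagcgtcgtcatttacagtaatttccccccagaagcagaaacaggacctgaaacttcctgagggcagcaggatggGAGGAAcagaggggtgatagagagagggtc
The run of Lyz2 holds no match to these letters, and the other 3 hold 1 each. Motifs were then counted in windows of 300 bases, which add the first 50 after the start. Of the 25 genes of the list with a window, 18 (72.0%) held the core on either strand, against 31.3% of all 27025 genes in the sequence table. The RUNX letters TGTGGT were found in 9 of the 25 (18.9% of all genes) and the C/EBP letters TTGCNNAA in 4 (12.2% of all genes), both strands searched. A match is a description of the letters and not a bound site.

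Among the lysosome and enzyme genes is the tested gene with the widest spread, and all 6 had control 1 highest with mutant 2 next. Lyz2, the lysozyme of myeloid cells, gave 484 and 846 on mutant 1 and mutant 2, against 1474 and 392 on control 1 and control 2. The array with the most signal thus had 3.76 times that of control 2, and mutant 1 lay close to control 2. Cd68, a lysosomal membrane glycoprotein of macrophages, gave 138 (mutant 1) and 199 (mutant 2), against 293 (control 1) and 127 (control 2). F13a1, the coagulation factor XIII subunit made by resident macrophages, gave 2063 on mutant 1 and 2288 on mutant 2, against 3323 on control 1 and 1514 on control 2. Lgmn, the lysosomal protease legumain, gave 581 and 610.3 on mutant 1 and mutant 2, against 875 and 464 on control 1 and control 2. In each of these 4 genes both control arrays bracketed both mutant arrays. Ctss, the cathepsin that trims invariant chain, gave 462 (mutant 1) and 546 (mutant 2), against 671 (control 1) and 437 (control 2), and it spread less, by 1.54 times. Cybb, the catalytic subunit of the phagocyte oxidase, gave 42.6 on mutant 1 and 65.0 on mutant 2, against 81.0 on control 1 and 43.3 on control 2, with control 2 and mutant 1 nearly level.

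The complement genes encode the A, B and C chains that assemble into C1q, and they followed one another. C1qa gave 430.0 and 579 on mutant 1 and mutant 2, against 577 and 351 on control 1 and control 2. C1qb gave 653 (mutant 1) and 832 (mutant 2), against 1161 (control 1) and 474 (control 2). C1qc gave 409 on mutant 1 and 475 on mutant 2, against 713 on control 1 and 258 on control 2. In all 3 the signals of control 1 and mutant 2 were above those of mutant 1 and control 2, and control 2 was lowest. Mutant 1, the next array, had 1.23 times the signal of control 2 for C1qa, 1.38 times for C1qb and 1.58 times for C1qc. The highest array had 1.65 times the signal of control 2 for C1qa, 2.45 times for C1qb and 2.76 times for C1qc.

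The receptors include those by which macrophages receive growth signals and take up ligands. Csf1r, on which macrophage survival depends, gave 1239 and 2171 on mutant 1 and mutant 2, against 2457 and 1159.9 on control 1 and control 2, which put control 1 and mutant 2 together and mutant 1 and control 2 together. The other 2 tested probe sets of Csf1r were also highest on control 1, but their differences by label had the opposite sign, at 0.027 and 0.083 (log2). Stab1, the scavenger receptor stabilin-1, gave 449.8 (mutant 1) and 699.8 (mutant 2), against 875 (control 1) and 501 (control 2). Folr2, the folate receptor beta of resident macrophages, gave 161 on mutant 1 and 179 on mutant 2, against 298 on control 1 and 142 on control 2, where mutant 2 lay nearer the low pair. Cd14, the coreceptor for lipopolysaccharide, gave 70.8 and 89.9 on mutant 1 and mutant 2, against 160.2 and 63.8 on control 1 and control 2, a spread of 2.51 times. Adgre1, the F4/80 antigen, gave 214 (mutant 1) and 248 (mutant 2), against 301 (control 1) and 186 (control 2). These 5 receptors shared the position of control 1 at the top, while the distance to mutant 2 differed among them.

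Mrc1, the mannose receptor, gave 1472 on mutant 1 and 1335 on mutant 2, against 1841 on control 1 and 1267 on control 2, so only control 1 stood apart. Cx3cr1, the receptor for the chemokine Cx3cl1, gave 141 and 177 on mutant 1 and mutant 2, against 211 and 166 on control 1 and control 2. Cd163, the scavenger receptor for haptoglobin and haemoglobin, was the exception among the receptors. Its signals were 30.4 (mutant 1) and 36.0 (mutant 2), against 43.0 (control 1) and 44.6 (control 2), so both mutant arrays lay below both control arrays and control 2 was the highest. Trem2, a lipid receptor of macrophages, was too dim for the test, at 14.6 on mutant 1 and 26.2 on mutant 2, against 56.4 on control 1 and 14.8 on control 2. Its mean log2 value of 5.36 lay just outside the filter, and Ccl4, the dimmest tested gene of the list at 5.74, lay just inside.

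Of the genes shared by all leukocytes, Ptprc, which encodes the CD45 phosphatase, gave 241 and 208 on mutant 1 and mutant 2, against 255 and 214 on control 1 and control 2, a spread of 1.22 times. Laptm5, a lysosomal protein of blood cells, gave 361 (mutant 1) and 461 (mutant 2), against 535 (control 1) and 455 (control 2). Cd53, a tetraspanin, gave 519 on mutant 1 and 380.3 on mutant 2, against 595 on control 1 and 426 on control 2. The spread was 1.48 times for Laptm5 and 1.56 times for Cd53, against a median of 1.302 over all tested genes. In Ptprc and Cd53 mutant 2 was the lowest array, unlike in the lysosome and enzyme genes and in C1q. The integrin beta chain Itgb2 gave 41 and 32.7 on mutant 1 and mutant 2, against 49.0 and 40.6 on control 1 and control 2, in the same order as Ptprc, while its partner Itgam, which was too dim for the test, gave 11.8 (mutant 1) and 20.2 (mutant 2), against 29.5 (control 1) and 12.5 (control 2). Control 1 was the highest array for all 5 genes, but the ratio of control 1 to control 2 was between 1.18 and 1.40 in the 4 that were tested, below the 1.65 median of the tested genes of the list.

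The Fc receptor gene Fcgr3 and the signalling adapter genes Tyrobp and Fcer1g had control 1 highest and mutant 1 next. Tyrobp, the adapter DAP12, gave 1096 on mutant 1 and 1018 on mutant 2, against 1315 on control 1 and 799 on control 2. Fcer1g, the common gamma chain, gave 955 and 785 on mutant 1 and mutant 2, against 1258 and 815 on control 1 and control 2. Fcgr3, a low-affinity receptor for IgG, gave 551 (mutant 1) and 538 (mutant 2), against 805 (control 1) and 421 (control 2), with the mutant arrays close to each other. In these 3 genes control 1 and mutant 2 did not form the higher pair.

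The transcription factors differed from each other. Irf8, which directs monocyte development, gave 52.4 on mutant 1 and 88.6 on mutant 2, against 88.7 on control 1 and 46.8 on control 2, with control 1 and mutant 2 level. Spi1, which encodes PU.1, gave 64.6 and 60.1 on mutant 1 and mutant 2, against 91.3 and 68.5 on control 1 and control 2, with both mutant arrays below both control arrays. Aif1, the actin-binding protein Iba1, gave 124 (mutant 1) and 129 (mutant 2), against 129 (control 1) and 80.5 (control 2), where control 2 alone was low. Ms4a7, a tetraspan protein of macrophages, gave 209 on mutant 1 and 279 on mutant 2, against 299 on control 1 and 132 on control 2, and again control 2 was lowest. Both had the higher mean on the mutant arrays, the largest such differences in the list.

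Of the chemokines, Pf4, which resident macrophages share with platelets, gave 1676 and 1093 on mutant 1 and mutant 2, against 1799.6 and 1167 on control 1 and control 2. Its high arrays were control 1 and mutant 1, an order that none of the lysosome and enzyme genes had. Ccl3, an attractant of monocytes, gave 34.8 (mutant 1) and 28.5 (mutant 2), against 78.0 (control 1) and 39.0 (control 2), with both mutant arrays below both control arrays. Its neighbour Ccl4, which binds the same receptor, gave 39.7 on mutant 1 and 34.8 on mutant 2, against 38.8 on control 1 and 36.5 on control 2 and spread by only 1.14 times, the least of the 33.

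The genes have 16 further probe sets, of which 9 were tested, and 7 of these 9 had the same highest array as the probe set described above. The other 2 were a probe set of Laptm5, highest on control 2 with control 1 and mutant 2 below the other arrays, and one of Irf8, highest on mutant 2. By label 6 of the 9 had the same sign.

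**Figure D2:**
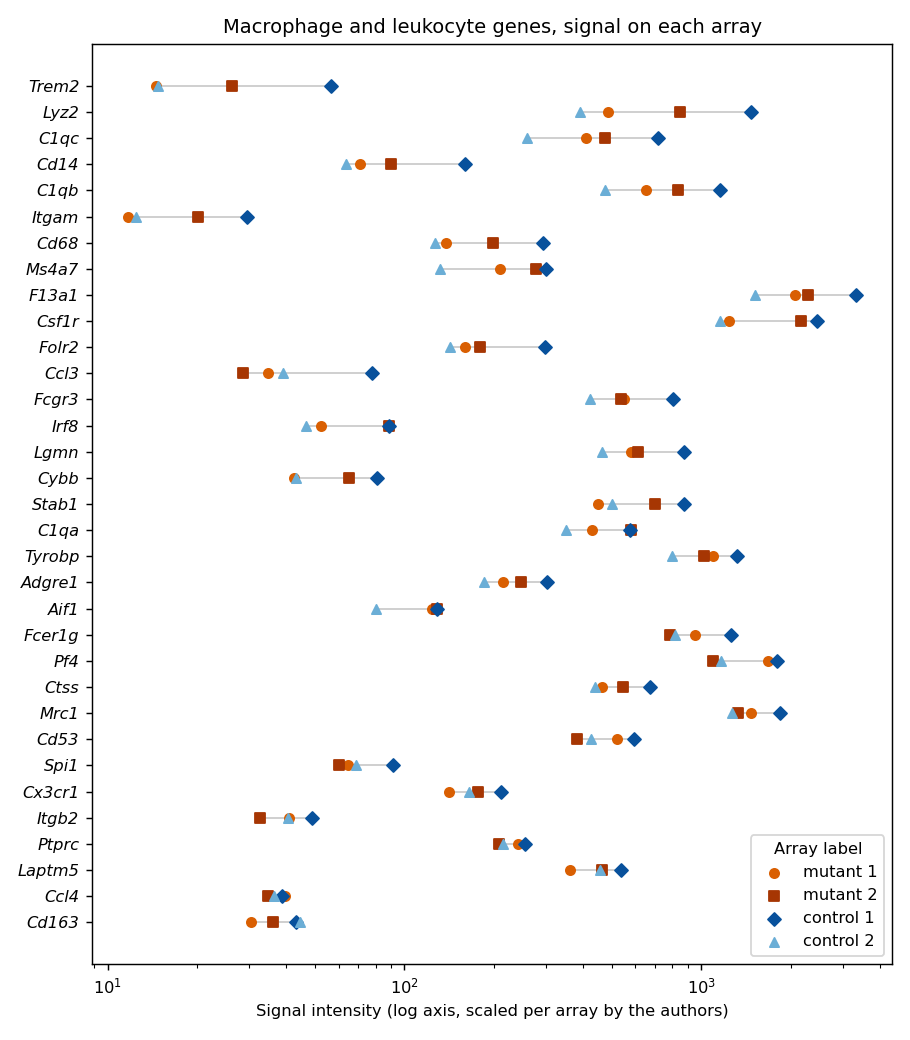
Signal intensity of the 33 genes on the 4 arrays, on a log axis, ordered from the lowest ratio of control 1 to control 2 (Cd163, bottom) to the highest (Trem2, top). Diamonds for control 1 lie at the right end of the grey range for 29 of the 33 genes.

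By label, no gene of the list passed the test of mutant against control. In limma, fitted to all 22519 tested probe sets with 2 arrays per group, 0 probe sets passed an adjusted p of 0.05 (0.0% called) and 208 (0.924%) had an unadjusted p under 0.05. None of the 31 tested genes of the list had an unadjusted p under 0.05, and all had an adjusted p of 0.9999 (limma, Benjamini-Hochberg). An exact permutation test of 2 arrays against 2 cannot give a two-sided p below 0.333. The labels do not say whether a sample is 1 embryo or several, so what the spread between samples stands for is not known. The limma p-values set each difference against that spread, moderated over all tested probe sets, and hold only for these samples. The mean was lower on the mutant arrays for 27 of the 33 genes, against 50.7% of all named genes, and for 25 of the 31 tested genes, against 51.3% of all tested genes. The median log2 difference of the 31 tested genes was -0.11, against -0.004 over all tested genes. That direction rested on control 1. Without control 1 the median turned to 0.23 and 6 of the 31 were lower, while without control 2 the median was -0.41 and 31 of the 31 were lower. Without mutant 1 the median was -0.06 and 17 were lower, and without mutant 2 it was -0.14 and 24 were lower. With the crossed pairs as a block, an alternative added after seeing the data, 108 probe sets passed (0.48%) and 0 of the 31 genes did. The block was read from these same arrays, so that count is not a test and nothing is concluded from it.

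Both mutant arrays lay below both control arrays for 3 of the 33 genes, Ccl3, Spi1 and Cd163, against 12.5% of all named genes, and above both for 0, against 11.2%. All 3 were among the 31 tested genes, where the shares of all tested genes were 11.0% below and 8.97% above, so the count below was near the share of the whole array. Ccl3 had the largest difference by label, -0.60 ± 0.31 (log2, SE, n = 2 per group), but its 2 control arrays differed from each other by more than control 2 differed from either mutant array. Without 1 array its difference ran from -0.98 to -0.21, and the value nearest to 0 was that without control 1. Spi1 differed by -0.28 ± 0.20 and ran from -0.45 to -0.11, and Cd163 by -0.28 ± 0.19 and ran from -0.37 to -0.20. Cd14 differed by -0.31 ± 0.41, Laptm5 by -0.26 ± 0.17 and Folr2 by -0.26 ± 0.35. On the other side, Aif1 differed by 0.27 ± 0.24, Ms4a7 by 0.25 ± 0.39 and C1qa by 0.14 ± 0.28. Lyz2, with the largest error of the tested genes, differed by -0.25 ± 0.66 and ran from -1.18 to 0.69 without 1 array, so its arrays allow a change in either direction. Ptprc had the smallest error and differed by -0.06 ± 0.16. Csf1r differed by -0.04 ± 0.44 and ran from -0.58 to 0.49. The other tested genes lay between -0.23 for Stab1 and 0.06 for Irf8.

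**Figure D3:**
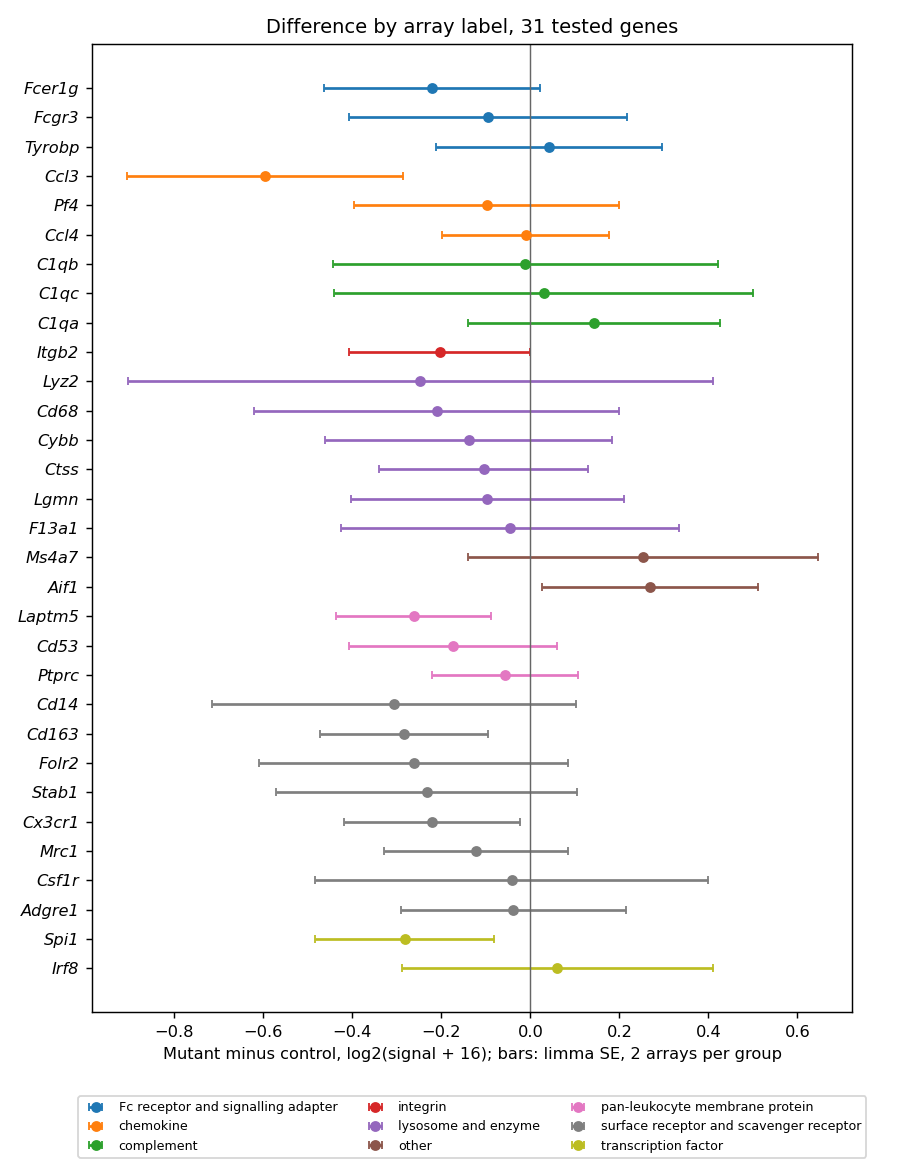
Difference of mutant minus control on the log2(signal + 16) scale for the 31 tested genes, coloured by role. Bars are limma standard errors from 2 arrays per group, and only those of 6 genes below 0 and of Aif1 above 0 do not reach the zero line.

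By pairs, control 1 and mutant 2 were both above control 2 and mutant 1 for 21 of the 33 genes, against 27.1% of all named genes, and both below for 0, against 21.5%. The 21 comprised all 6 lysosome and enzyme genes, all 3 C1q genes, 7 of 9 receptors, Laptm5, Itgam, Irf8, Aif1 and Ms4a7. Of the 31 tested genes 19 had this order, against 29.6% of all tested genes, and 0 had the reverse, against 23.9%. The 3 Fc receptor and adapter genes and the 3 chemokines did not have it.

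Within the pairs the arrays labelled mutant and control differed in opposite ways. Mutant 2 had less signal than control 1 in 31 of the 33 genes, against 50.1% of all named genes, with a median ratio of 0.717. Mutant 1 had more signal than control 2 in 24 of the 33, against 49.3% of all named genes, with a median ratio of 1.13. In 22 of the 33 both held, against 26.1% of all named genes. Ratios of mutant 2 to control 1 ran from 0.365 for Ccl3 to 1.00 for C1qa and Aif1, and those of mutant 1 to control 2 from 0.681 for Cd163 to 1.58 for C1qc and Ms4a7. Lyz2 had 0.574 of the control 1 signal on mutant 2 and 1.23 times the control 2 signal on mutant 1. For Csf1r the corresponding ratios were 0.884 and 1.07, so its arrays lay closer together within each pair than those of Lyz2 did. Mutant was below control in both pairs for Cd163, Stab1, Cx3cr1, Trem2, Laptm5, Itgam, Spi1, Cybb and Ccl3. The share of all named genes below in both pairs was not counted, so no excess is read from these genes. In the dim genes Trem2, Cybb and Itgam the ratio of mutant 1 to control 2 was 0.985, 0.983 and 0.944.

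**Figure D4:**
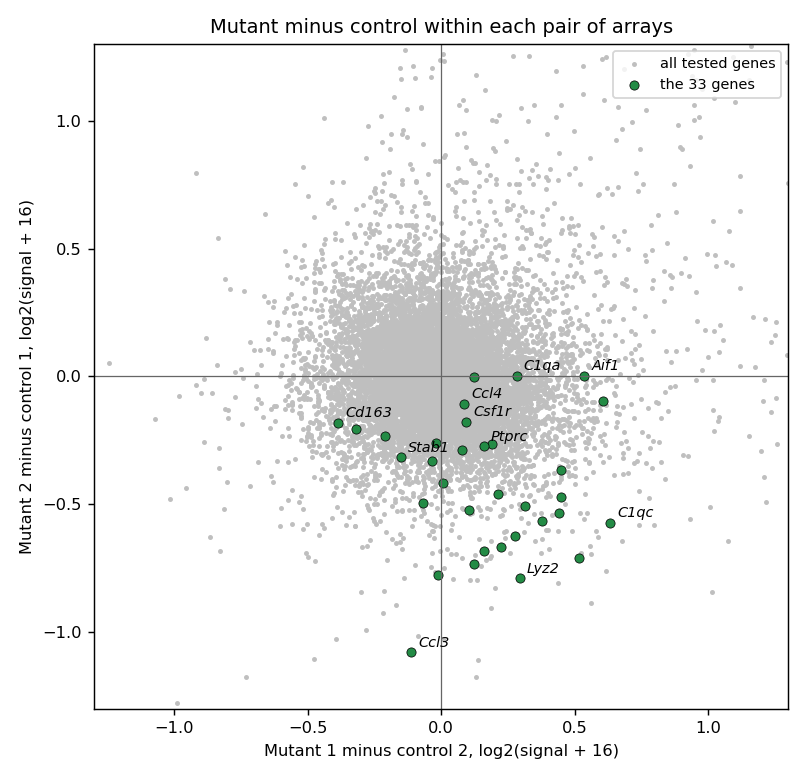
Log2 difference of mutant 1 minus control 2 (horizontal) against mutant 2 minus control 1 (vertical), each on log2(signal + 16), for the 33 genes (green) and all tested genes (grey), of which 114 lie outside the axes at 1.3. Of the 33 genes, 22 lie at the lower right, with mutant 2 below control 1 and mutant 1 above control 2.

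Further macrophage genes that are not in the list were counted the same way, and genes of these other lists are named for a large difference by label or between the pairs. Of 41 tested genes, 0 passed the test by label and 26 had the lower mean on the mutant arrays, against 51.3% of all tested genes. Control 1 was the highest array for 31, against 26.1% of all tested genes. Control 1 and mutant 2 were above the other arrays for 25, against 29.6%, and below for 1, against 23.9%. Gas6, a bridge to apoptotic cells that other cells also make, gave 469 and 1236 on mutant 1 and mutant 2, against 1429 and 498 on control 1 and control 2. Cd83, a membrane protein of activated antigen-presenting cells, gave 56.9 (mutant 1) and 147 (mutant 2), against 165 (control 1) and 49.2 (control 2). Plek, the platelet and leukocyte protein pleckstrin, gave 138 on mutant 1 and 152 on mutant 2, against 271 on control 1 and 140.4 on control 2. Lyve1, which marks lymphatic endothelium as well as some dermal macrophages, gave 1174 and 763 on mutant 1 and mutant 2, against 1382 and 1447 on control 1 and control 2 and did not have control 1 highest. Of 15 tested lysosome genes, 10 were highest on control 1, against 26.1% of all tested genes. The protease Ctsd was one of them, at 1066 (mutant 1) and 1371 (mutant 2), against 1399.9 (control 1) and 923 (control 2). The protease Ctsh instead gave 814 on mutant 1 and 229 on mutant 2, against 214 on control 1 and 584 on control 2.

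The growth factor Csf1 was measured with 163 and 232 on mutant 1 and mutant 2, against 255 and 165 on control 1 and control 2, so control 1 and mutant 2 were above the other arrays, as for its receptor. Il34, the other ligand of Csf1r, was below the filter, at 31 (mutant 1) and 22.3 (mutant 2), against 5.99 (control 1) and 34.2 (control 2), and lowest where Csf1 was highest. Cx3cl1 was below the filter too, at 23.6 on mutant 1 and 24.4 on mutant 2, against 31.1 on control 1 and 23.3 on control 2. Of 8 tested growth factors and attractants 4 were highest on control 1, against 26.1% of all tested genes. Ccl9, a chemokine of myeloid cells, gave 113 and 189 on mutant 1 and mutant 2, against 257 and 94.3 on control 1 and control 2. The chemokines Ccl2 and Ccl12 had the largest differences by label in this list, and in neither did control 1 and mutant 2 form the higher pair. Ccl2 gave 92.2 and 57.8 on mutant 1 and mutant 2, against 122 and 79.1 on control 1 and control 2. Ccl12 was highest on mutant 1, with 126 and 91.6 on mutant 1 and mutant 2, against 93.3 and 70.3 on control 1 and control 2. Of the further complement genes, Serping1, the inhibitor of C1, gave 467 (mutant 1) and 815 (mutant 2), against 904 (control 1) and 288 (control 2). Of the proteases that join C1q in the C1 complex, C1ra gave 28.9 on mutant 1 and 70.1 on mutant 2, against 75.6 on control 1 and 15.1 on control 2, and C1s1 gave 60.3 and 131 on mutant 1 and mutant 2, against 124 and 43.4 on control 1 and control 2. These 3, of 9 tested further complement genes, had control 1 and mutant 2 above the other arrays, near the share of 29.6% of all tested genes. Cd55, with the largest difference by label of the 9, did not have this order. It gave 448 and 185 on mutant 1 and mutant 2, against 248 and 185 on control 1 and control 2. Of the 9, 2 had the lower mean on the mutant arrays, against 51.3% of all tested genes. Of 12 tested receptors for chemokines and cytokines 7 had the lower mean on the mutant arrays, against 51.3% of all tested genes. Control 1 was the highest array for 5, against 26.1%. Control 1 and mutant 2 were above the other arrays for 3, against 29.6%, and below for 4, against 23.9%.

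Markers of other leukocytes were looked at because whole dermis holds several. The calprotectin genes of neutrophils were uneven between the arrays, with S100a8 at 70.7 (mutant 1) and 215 (mutant 2), against 454 (control 1) and 70.2 (control 2) and S100a9 at 29.9 on mutant 1 and 107 on mutant 2, against 262 on control 1 and 25.9 on control 2. Ngp, a granule protein of neutrophils, gave 20.2 and 48.3 on mutant 1 and mutant 2, against 115 and 31.5 on control 1 and control 2. All 3 tested of 10 matched neutrophil genes were highest on control 1, against 26.1% of all tested genes. The filter takes the mean over all arrays, and S100a9 and Ngp were dim on mutant 1 and control 2. Such genes can pass through a high signal on control 1, so no excess is read from this count. Of the neutrophil genes below the filter, Mpo, Camp, Ltf, Prtn3 and Mmp8 were highest on control 1. Ctsg was highest on mutant 1 and Elane on mutant 2. The summed signal of the 10 was 194 and 449 on mutant 1 and mutant 2, against 1014 and 178 on control 1 and control 2, which moved with the list described here. On control 1 and mutant 2 most of that sum came from S100a8 and S100a9, and the other neutrophil genes were dimmer. Mast cell genes mostly did not have control 1 highest: of 10 tested, 1 did, against 26.1% of all tested genes. This was Tpsab1, with 368 and 575 on mutant 1 and mutant 2, against 921 and 245 on control 1 and control 2. The summed signal of the mast cell genes was 18329.7 and 12196 on mutant 1 and mutant 2, against 16328 and 15146 on control 1 and control 2. Lymphocyte genes were mostly dim, with 2 of 12 matched genes tested and a summed signal of 147 and 145 on mutant 1 and mutant 2, against 147 and 174 on control 1 and control 2. Langerhans and dendritic cell genes had 1 of 7 tested genes highest on control 1, against 26.1% of all tested genes. Control 1 and mutant 2 were below the other arrays for 4 of the 7, against 23.9%. The class II gene H2-Aa, which presents antigen, gave 71.5 (mutant 1) and 27.0 (mutant 2), against 37.2 (control 1) and 84.1 (control 2).

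Other tissue in the dermis moved between the arrays as well. Erythroid genes had 4 of 6 tested genes with control 1 and mutant 2 above the other arrays, against 29.6% of all tested genes. Their summed signal was 2914 and 5776 on mutant 1 and mutant 2, against 6783 and 3796 on control 1 and control 2, a sum that 1 gene carries. This gene, the embryonic globin Hbb-y, gave 2296 on mutant 1 and 5169.6 on mutant 2, against 6158 on control 1 and 3267 on control 2. Rhd, a blood group gene, gave 42.4 and 41.3 on mutant 1 and mutant 2, against 16.3 and 35.9 on control 1 and control 2, so it was lowest on control 1, where Hbb-y was highest. Platelet genes gave a summed signal of 284 and 315 on mutant 1 and mutant 2, against 342 and 246 on control 1 and control 2. Skeletal muscle genes had 0 of 10 tested genes highest on control 1, against 26.1% of all tested genes. Their summed signal was 18031 and 8755 on mutant 1 and mutant 2, against 3143 and 9531 on control 1 and control 2, lowest where the macrophage genes were highest. Epidermal genes gave 5619 and 1752 on mutant 1 and mutant 2, against 1537 and 1268 on control 1 and control 2, and cartilage genes 286 and 10832 on mutant 1 and mutant 2, against 321 and 314 on control 1 and control 2, each with 1 array far above the rest. Dermal fibroblast genes gave 37075 and 24917 on mutant 1 and mutant 2, against 28601 and 33585 on control 1 and control 2. Of the 7, 5 had control 1 and mutant 2 below the other arrays, against 23.9% of all tested genes. Endothelial genes gave 4115 and 4643 on mutant 1 and mutant 2, against 4930.4 and 4968 on control 1 and control 2. Both mutant arrays were below both control arrays for 7 of 12 tested, against 11.0% of all tested genes. No gene in any of these lists passed the test by label. No signal in them was listed at 0, and the part of these tissues in the result for the leukocyte genes was not tested.

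**Figure D5:**
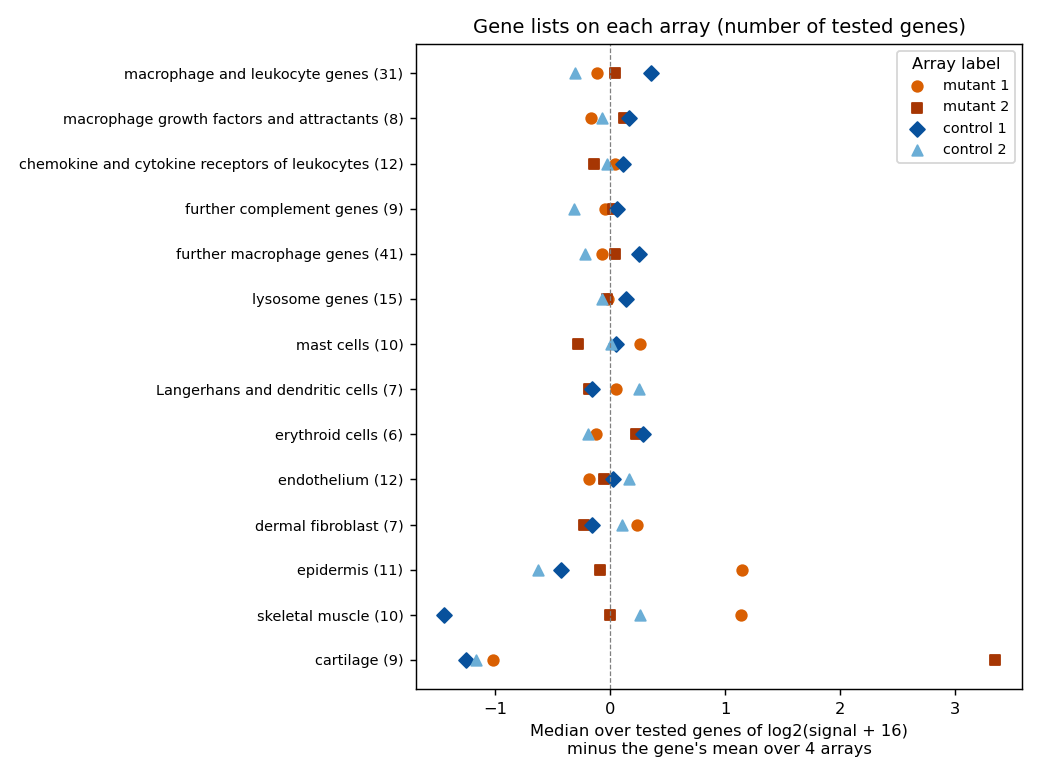
Median over the tested genes of each list of log2(signal + 16) minus the gene's mean over the 4 arrays, with the number of tested genes in brackets; lists with under 6 tested genes are left out. Control 1 lies highest for the macrophage and leukocyte genes at 0.36 and lowest for skeletal muscle at -1.45.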

How the data were processed

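RNA of 2 mutant and 2 control dermis samples was read on Affymetrix Mouse430_2 arrays. The signal intensities were deposited by the authors on a linear scale, with GCOS and MAS5 named per the submitters' processing notes, and have a 2% trimmed mean of 150.0 on every array. Per the header of the authors' deposited table, its fold changes come from GCRMA values, a fold filter and an uncorrected p threshold, and that table was used only to count probe sets. Whether MAS5 signals differ from GCRMA values for these genes was not tested. Scaling each array to one mean sets every value relative to the rest of that array.

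Of 45101 probe sets, 64 array controls were left out, and 34945 name 1 gene, 932 several and 9160 none in the platform annotation. Values were taken as log2(signal + 16), which understates changes of dim genes. Probe sets at or over the median were fitted with limma 3.58.1 (R 4.3.3, eBayes with trend) on all 4 arrays without a block, with Benjamini-Hochberg adjustment at 0.05. The fit was also run on simulated arrays drawn independently of each other. They lack the pair structure of these arrays, so that run does not show how the fit behaves on them. Counts by array order used Python 3.11.15. Sequences came from RefSeq (GRCm38.p6), with a window for 25 of the 33 genes. All 33 genes are named; of the other lists, genes with the largest difference by label or between the pairs were eligible, with Csf1, Il34 and Cx3cl1 named in any case. The genes, lists and pairs were chosen with earlier results of these data known. The labels state no pairing, and the main fit does not pair arrays by the numbers in the titles. The deviations of same-numbered arrays correlated at -0.62 over 22519 probe sets. With 4 arrays that value cannot show whether the numbers pair them. The labels do not say whether RNA was pooled, and the number of arrays limits the precision.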

Additional observations from a re-analysis of the deposited data

How the results depend on the processing

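No gene of the list passed the test under any setting that was run. Other pseudocounts (1 and 64), no filter, quantile normalization and median centring gave medians of the list between -0.13 and -0.09. With these settings 1 direction turned, that of C1qb, to 0.0037 under quantile normalization. With the mean of all probe sets of a gene, Csf1r turned to 0.023, Irf8 to -0.037 and Ms4a7 to -0.10; the cause was not tested. The count of probe sets past the threshold was 0 by limma, 0 to 1 without 1 array (1 without mutant 2), and 3 by the methods' t-test at the threshold of the authors' table, of which 0 passed after Benjamini-Hochberg and 0 named a gene of the list. With the replicate block of the numbers in the titles the count was 0 and the median -0.11. With the crossed pairing as a block, added after seeing the data, 108 probe sets passed and 0 of the 31 genes did. Because the pairing came from the same arrays, nothing is concluded from that count. Scan day and fluidics module could not be fitted as blocks, because all arrays share the day and none shares a module. The crossed pairs are also the first 2 and the last 2 arrays scanned, so that block stands for both.

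Leaving out an array mattered most. The number of genes lower in mutants was 25 of 31 with all arrays, and 6 to 31 without 1 array, 6 without control 1 and 31 without control 2. It was 17 without mutant 1 and 24 without mutant 2. Directions turned for 19 genes without control 1, 6 without control 2, 10 without mutant 1 and 7 without mutant 2. The ranges of the log2 differences without 1 array, for the genes that turned, were as follows: Adgre1 from -0.36 to 0.29, Aif1 from -0.023 to 0.56, C1qa from -0.20 to 0.49, C1qb from -0.64 to 0.62, C1qc from -0.68 to 0.74, Ccl4 from -0.076 to 0.055, Cd14 from -0.88 to 0.26, Cd53 from -0.41 to 0.059, Cd68 from -0.77 to 0.34. They were Csf1r from -0.58 to 0.49, Ctss from -0.41 to 0.20, Cybb from -0.49 to 0.22, F13a1 from -0.61 to 0.52, Fcer1g from -0.53 to 0.087, Fcgr3 from -0.55 to 0.36, Folr2 from -0.76 to 0.23, Irf8 from -0.31 to 0.43, Lgmn from -0.54 to 0.35. The remaining ranges were Lyz2 from -1.18 to 0.69, Mrc1 from -0.39 to 0.14, Ms4a7 from -0.29 to 0.80, Pf4 from -0.41 to 0.21, Ptprc from -0.17 to 0.061, Stab1 from -0.63 to 0.16, Tyrobp from -0.31 to 0.40. The count of genes highest on control 1 stayed between 25 and 29 of the 31 under the scaling and probe set settings, and that of control 1 and mutant 2 above the other arrays between 16 and 19. Trem2 and Itgam lay below the filter on dim probe sets and have no test.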
